A study of Danio rerio with 11 samples.

Results

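Unexposed zebrafish embryos were compared across hatching, with 3 control arrays at 72 h post fertilization (hpf) against the single control array at 48 hpf, which together are 4 of the 11 arrays of the series. Each Affymetrix zebrafish array carried total RNA pooled from all 30 whole embryos of a cup, and the control cups held zebrafish medium without oil emulsion. The same 2 ages were also sampled in embryos kept for 48 h with 250 mg of shoreline oil emulsion: 1 array each for Gulfport, Fort Morgan and Perdido Key at 72 hpf (exposed from 24 hpf), and 1 for Gulfport at 48 hpf (exposed from fertilization). Unexposed embryos at 96 hpf gave 2 further arrays, and the last array, Gulfport at 96 hpf, entered the filter, the choice of probe sets and the fit of all arrays, and no comparison. The sources used here gave neither the strain nor whether the embryos had left the chorion at collection.

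Genes were taken as changed between the ages in 2 ways. A probe set was described as higher or lower by rule when it differed from the 48 hpf array by at least 1 on the log2 scale, which is at least 2-fold, in each of the 3 arrays at 72 hpf. It was called when it passed limma at an adjusted p of 0.05 in a fit of the 6 control arrays. Among 9803 tested probe sets the rule took 255 (2.6%) as higher and 117 (1.19%) as lower.

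Between these ages the zebrafish leaves the chorion and turns from an embryo that divides and patterns its tissues into a larva that will see, swim and feed. Cone photoreceptors mature before rods, and the photopigments, the cone transducin and the phosphodiesterase that carry the light response are made as their outer segments form. Pancreatic acinar cells begin to make digestive enzymes, the gut lining polarises, and the liver grows, while embryonic red cells made in the first wave of blood formation are not renewed at the same rate. Neural progenitors in the brain and retina, which use Notch signalling to hold back differentiation, leave the cell cycle and become neurons and glia.

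The arrays had nearly equal distributions, which the normalization of the deposited values imposes. The reference genes actb2, eef1a1l1, rpl13a and gapdh differed between the ages by 0.10, 0.03, -0.04 and -0.02 without passing limma. Their means at 72 hpf were 13.18, 13.88, 13.17 and 13.18, near the top of the array's range, so they say little about dimmer genes. The tubulin gene tuba1b, also a reference gene, fell by 0.70 from 10.48 at 48 hpf (limma adjusted p = 0.0105). Of 45 marker genes of 15 cell types, 31 were tested. Of these, 30 reached log2 6 in at least 1 of the 4 arrays, with at least 1 for every type. Tested genes had already reached log2 6 in some array of the series, so 30 of 31 is largely fixed by the filter. It is no separate check that the cell types were detected. Hatching gland rested on klf17 alone, because the hatching enzyme genes he1.1, he1.2 and ctslb were not tested. Lens, heart, blood and pigment also rested on 1 tested marker each, cryaa, myl7, alas2 and dct. The rod opsin gene rho was not tested either. Pairs of the 3 arrays at 72 hpf differed by at least 1 in 21, 36 and 41 probe sets. The lower quartile of the values set replicate 2 at 72 hpf and the 48 hpf array together in a lower class of arrays. Replicates 1 and 3 at 72 hpf fell in an upper class. The classes were drawn from the values, at the largest gap (4.79 to 4.81) in quartiles that ran from 4.75 to 4.84. No label names a batch. Within the lower class replicate 2 alone was at least 1 above the 48 hpf array in 409 probe sets and at least 1 below it in 185. Since RNA came from whole embryos, fewer cells of a type and less RNA per cell cannot be told apart for any gene below.

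Limma called 905 probe sets higher (9.23%) and 854 lower (8.71%), 1759 in all (17.9%), and 3074 had an unadjusted p under 0.05. With array class as a block the calls were 687 higher and 489 lower. Without replicate 2 at 72 hpf they were 681 and 559. The 48 hpf group is a lone array, assumed in this fit to vary like the other controls. Below, each replicate control was also left out in turn, which never removed the 48 hpf array. Without either 96 hpf array, that age has no spread left, and the fit equals that of the 48 and 72 hpf arrays only. The omissions at 96 hpf are therefore the same check and not separate ones. Every omission leaves fewer arrays to measure spread, and the class block leaves fewer residual degrees of freedom. The share of either in lost calls was not tested. Whether replicates were separate cups or spawnings is not stated, so the p-values rest on array-to-array spread that may be only technical.

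As genes with 1 probe set each, 162 of 6466 (2.51%) were higher and 75 (1.16%) lower by rule. Of the 255 probe sets higher by rule, 183 carried 1 gene symbol, 6 several and 66 none. Their median difference was 1.53 and the largest was 7.05. At least 2 in all 3 arrays was reached by 63, at least 3 by 26 and at least 4 by 16. The 117 lower ones had a median of -1.30 and comprised 91 with 1 symbol, 5 with several and 21 with none. Only 10 of them reached 2 in all 3 arrays, 3 reached 3 and 1 reached 4. The large steps were thus mostly upward, as the plot of levels at both ages shows. At 48 hpf 133 of the 255 lay under log2 6, where RMA compresses differences, and 42 of the 117 lay under log2 6 in all 3 arrays at 72 hpf. Their differences are as measured and are neither bounds nor exact.

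**Figure D1:**
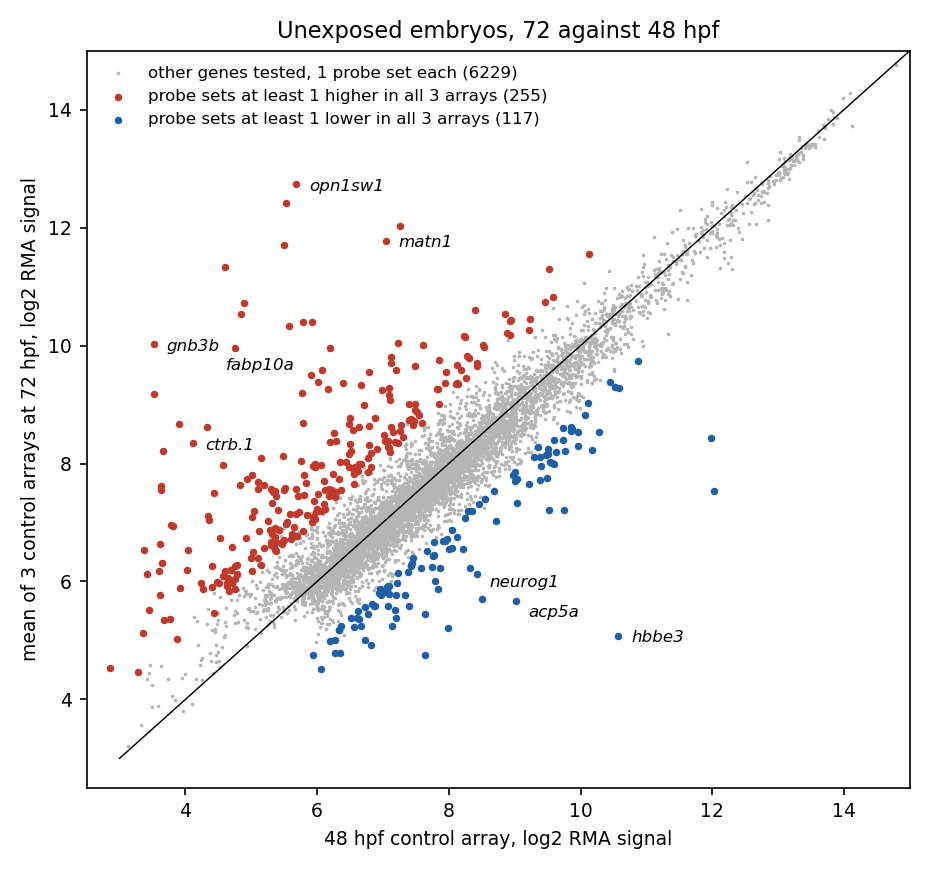
Log2 RMA signal at 72 hpf (mean of 3 control arrays, vertical) against 48 hpf (1 control array, horizontal), with the line of equality. Red points are the 255 probe sets at least 1 higher in all 3 arrays, blue points the 117 at least 1 lower, and grey points the other genes. The farthest points above the line include the cone opsin gene opn1sw1 (12.73 at 72 hpf, 5.68 at 48 hpf), and hbbe3 lies farthest below among the named genes (5.08 at 72 hpf, 10.58 at 48 hpf).

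Phototransduction genes had the highest median difference of the lists. Of 27 tested genes of phototransduction, 23 rose by limma and 0 fell, against 8.3% and 9.64% of all 6466 genes tested (1 probe set each), and 22 were higher by rule. The counts of every list below stand against these shares over all genes, and a count near them says nothing particular about its list. The list's median difference was 2.91, against -0.05 over all genes. Genes were tested if they reached log2 6 in any of the 11 arrays, and the list's median level at 48 hpf was 5.31. Genes under log2 6 at 48 hpf thus entered through other arrays, for opn1sw1 the later ones where it was high. The filter therefore favours rises in such lists, exocrine pancreas (median level 5.34 at 48 hpf) among them. All 23 calls held without any 1 of the 5 replicate controls and with array class as a block. For the 22 taken by rule on the same 72 hpf arrays this is largely fixed by that choice. The same limit holds for genes taken by rule in the lists below.

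The ultraviolet cone opsin gene opn1sw1 read 5.68 at 48 hpf, 12.37, 12.93 and 12.90 at 72 hpf, and 13.51 and 13.45 at 96 hpf. This was a rise of 7.05 on the log2 scale, or 132-fold over a dim value at 48 hpf (SE 0.22, limma adjusted p = 2.16e-06). The blue cone opsin gene opn1sw2 read 5.49 at 48 hpf, 11.43, 11.86 and 11.83 at 72 hpf, and 12.42 and 12.55 at 96 hpf. All 3 arrays at 72 hpf were at least 5.93 above the 48 hpf array in opn1sw2 and at least 6.68 above it in opn1sw1. For the green cone opsin gene opn1mw1 the values were 4.60 at 48 hpf, 11.01, 11.53 and 11.45 at 72 hpf, and 12.01 and 12.11 at 96 hpf. Its near copy opn1mw2 rose less, by 2.49 (limma adjusted p = 0.00161). The probes of such near-identical opsin genes may share transcripts, so the split between them is uncertain.

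The genes of the cone cascade behind the opsins also rose. The cone transducin subunit genes gnat2 (alpha), gnb3b (beta) and gngt2b (gamma) rose by 5.69, 6.5 and 6.88. For gnat2 the arrays read 4.85 at 48 hpf, 10.03, 10.88 and 10.72 at 72 hpf, and 11.71 and 11.78 at 96 hpf. The cone phosphodiesterase gene pde6c, whose product breaks down cyclic GMP in light, rose by 5.20 (SE 0.24, limma adjusted p = 2.03e-05), and its inhibitory subunit genes pde6ha and pde6hb by 4.75 and 4.61. Each of these cone genes other than opn1mw2 lay under log2 6 at 48 hpf and above log2 8 in every array at 72 hpf. The recoverin gene rcvrn3, a calcium sensor of photoreceptors, rose by 4.77 and the phosducin gene pdcb, whose product binds the transducin beta and gamma subunits, by 5.65. The guanylate kinase gene guk1b read 7.40, 7.65 and 7.79 at 72 hpf, against 3.62 at 48 hpf. Replicate 1 was the lowest of the 72 hpf arrays for opn1sw1, opn1sw2, opn1mw1, gnat2, gnb3b, gngt2b, pde6c and rcvrn3.

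Rod genes were measured by few probe sets, and the split of rod from cone members was made after the values were seen, so it is given without a test. The 11 cone genes of the list differed by 1.99 to 7.05, with a median of 5.69. The 4 rod genes differed by 0.02 to 3.60, with a median of 2.03. The rod transducin alpha gene gnat1 read 5.79 at 48 hpf, 8.49, 8.78 and 8.81 at 72 hpf, and 9.59 and 9.65 at 96 hpf, a rise of 2.91 (limma adjusted p = 3.73e-05). The other probe set of gnat1 rose by 3.93, and that of the cone gene gnat2 by 4.55. The rod gamma subunit gene gngt1 rose by 3.60. The rod phosphodiesterase gene pde6a rose by 1.16, with 4.90, 5.15 and 5.03 at 72 hpf, against 3.87 at 48 hpf, and all 4 values were dim. The transducin beta gene gnb1b, which is also used outside the retina, differed by 0.02. It is counted among the 4 rod genes and lowers their median.

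Transcription factor genes that specify photoreceptors did not pass. The homeobox gene crx read 8.56 at 48 hpf, 8.72, 8.83 and 8.54 at 72 hpf, and 7.93 and 8.06 at 96 hpf (72 minus 48 hpf 0.14, limma adjusted p = 0.590). The values of nr2e3, a nuclear receptor gene of the rod lineage, were 6.31, 6.22 and 5.55 at 72 hpf, against 6.74 at 48 hpf (-0.71, limma adjusted p = 0.168). Among the tested genes of the phototransduction list these 2, gnb1b and rom1a (0.58) did not pass.

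**Figure D2:**
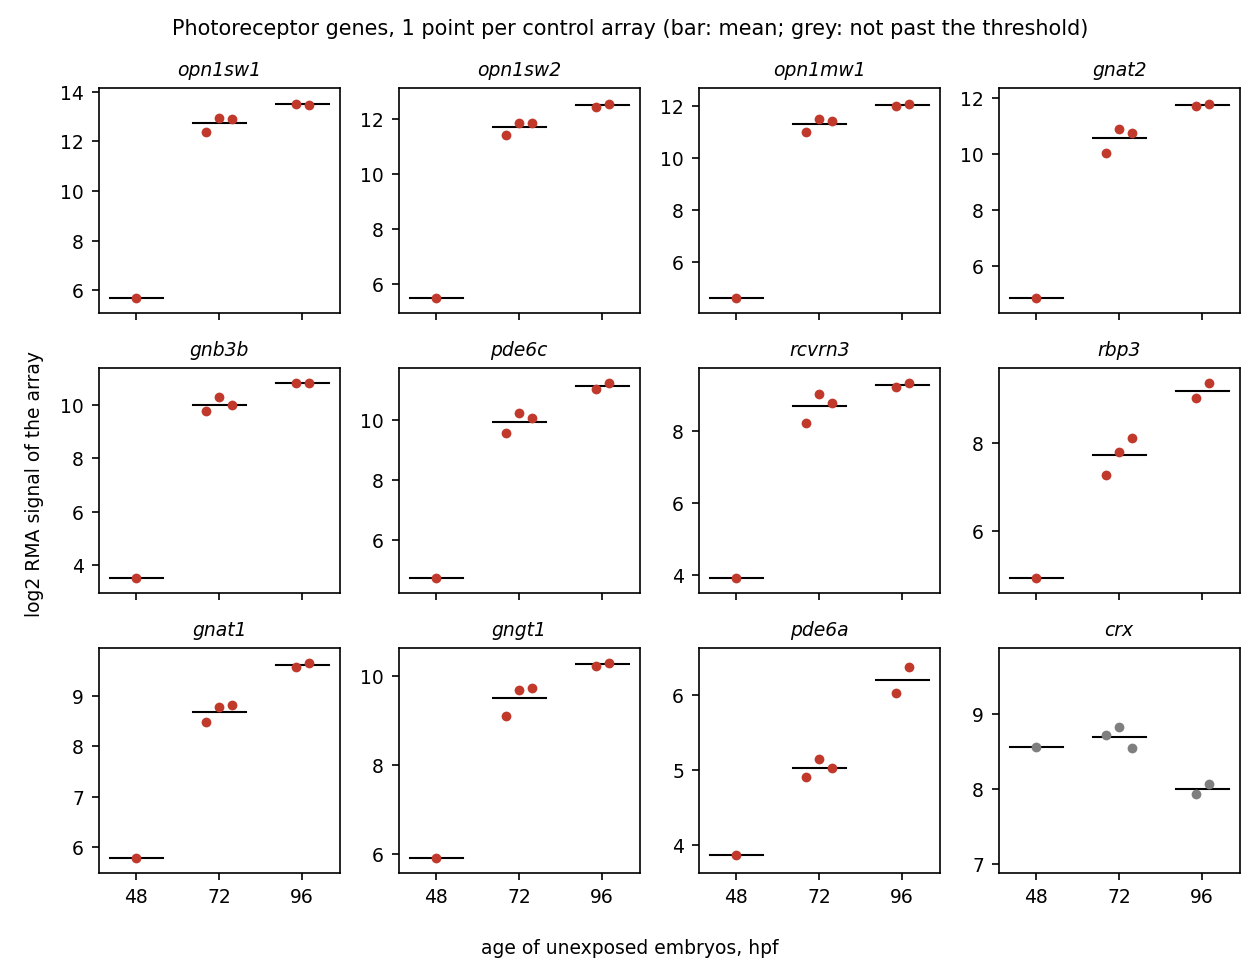
Log2 RMA signal of 12 photoreceptor genes (vertical, own scale per gene) in each unexposed array at 48 (1 array), 72 (3) and 96 hpf (2), with bars at the means. The first 11 genes, picked with their values known, rose between 48 and 72 hpf with no overlap of the arrays. The gene crx (grey), at 8.56 at 48 hpf and 8.54 to 8.83 at 72 hpf, did not pass.

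Some genes of retinoid handling rose. Of 12 tested genes of retinoid handling and the retinal pigment epithelium, 3 rose and 1 fell, with a median of 0.13. Over all genes the shares were 8.3% higher and 9.64% lower, so 1 fall of 12 says nothing particular. The 3 that rose were rbp3 (2.80), rpe65a (2.38) and rlbp1a (1.21). The product of rbp3 carries retinoid between photoreceptors and pigment epithelium, and that of rpe65a is the isomerase that regenerates the chromophore. That of rlbp1a binds retinal in pigment epithelium and Müller glia. For rpe65a the arrays read 7.20 at 48 hpf, 9.56, 9.58 and 9.61 at 72 hpf, and 8.57 and 9.36 at 96 hpf, and the 3 arrays at 72 hpf were nearly equal. The retinoic acid binding protein gene crabp2a fell by 0.63 (limma adjusted p = 0.0130). Limma called 0 of the 7 tested lens genes in either direction, with 0 at an unadjusted p under 0.05, and cryaa, an alpha crystallin, differed by -0.34.

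Digestive enzyme genes of the exocrine pancreas formed another large group. Of 19 tested, 10 rose and 1 fell, with a median difference of 0.94, and 9 were higher by rule. All 11 calls held without any 1 of the 5 replicate controls. As 9 of the rises and the fall were taken by rule on the same 72 hpf arrays, this is largely fixed by that choice. The chymotrypsinogen gene ctrb.1 read 4.11 at 48 hpf, 7.90, 8.36 and 8.76 at 72 hpf, and 12.01 and 12.47 at 96 hpf. It rose by 4.23 (SE 0.31, limma adjusted p = 0.000138). The trypsin gene prss1 read 6.19 at 48 hpf, 9.79, 9.88 and 10.19 at 72 hpf, and 12.93 and 13.29 at 96 hpf. Both genes stood lower in every 72 hpf array than in either 96 hpf array. The elastase gene cela1.6 rose by 3.5, the carboxypeptidase gene cpa5 by 2.66 and a further elastase gene, ela3l, by 2.15. The pancreatic protein disulfide isomerase gene pdia2 rose by 1.67, with 5.37, 5.35 and 5.31 at 72 hpf, against 3.67 at 48 hpf. The exception was ptf1a, which encodes a transcription factor that specifies acinar cells and also acts in neural progenitors. It read 5.92, 5.58 and 5.82 at 72 hpf, against 6.96 at 48 hpf, a fall of 1.19 on the log2 scale (limma adjusted p = 0.00266).

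In the intestine list 6 of 18 tested genes rose and 2 fell, with a median of 0.37. The villin gene vil1, an actin bundler of the brush border, read 3.65 at 48 hpf, 6.28, 6.04 and 6.65 at 72 hpf, and 8.96 and 8.74 at 96 hpf, a rise of 2.67 between the first 2 ages (SE 0.22, limma adjusted p = 0.000303). The tetraspanin relative gene tm4sf4 rose by 2.65 and the retinol binding protein gene rbp2a by 1.41. The tight junction gene cldn15la rose by 1.38. The ileal bile acid binding protein gene fabp6 read 5.86, 5.66 and 6.78 at 72 hpf, against 4.57 at 48 hpf (1.53, limma adjusted p = 0.0270; 0.0812 with array class as a block). The chitinase gene chia.2 rose by 0.80 but stayed dim, at 5.19, 5.14 and 5.52 at 72 hpf, against 4.48 at 48 hpf (limma adjusted p = 0.0162; 0.0580 with array class as a block). A fatty acid binding protein gene that is also used by the yolk syncytial layer, fabp1b.1, fell by 0.80 (limma adjusted p = 0.00506). The apolipoprotein gene apoa4a fell by 0.69 (limma adjusted p = 0.0336), but this call was lost without any 1 of the 3 arrays at 72 hpf (up to 0.0584) and with array class as a block (0.104).

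Of 23 tested genes in the list of liver plasma proteins 2 rose and 1 fell, with a median of 0.18. Over all genes the shares were 8.3% higher and 9.64% lower. A place in this list does not show that a gene's signal came from liver. The liver fatty acid binding protein gene fabp10a read 6.01 at 48 hpf, 9.30, 9.24 and 9.59 at 72 hpf, and 11.54 and 11.45 at 96 hpf, a rise of 3.37 between the first 2 ages (SE 0.16, limma adjusted p = 2.52e-05). The retinol binding protein gene rbp4l, also in this list, rose by 2.2, and the tissue its signal came from was not tested. In contrast the transferrin gene tfa, already at 11.89 at 48 hpf, read 12.12, 12.13 and 12.16 at 72 hpf (limma adjusted p = 0.223), and the fibrinogen gene fga differed by 0.12. The haptoglobin gene hp fell by 0.52 (limma adjusted p = 0.0462), a call lost without each of the 5 replicate controls in turn (up to 0.0887). Of 19 genes of amino acid and nitrogen metabolism 5 rose and 1 fell, with a median of 0.34. They included the arginase gene arg2 (1.77), the tryptophan dioxygenase gene tdo2a (1.51) and the aminotransferase gene agxta (0.99). The one that fell was ass1, of the urea cycle (-0.74, limma adjusted p = 0.0225), which did not pass without replicate 2 or 3 at 72 hpf (up to 0.0601). Of 24 tested cytochrome P450 genes 8 rose and 0 fell, with a median of 0.37, and 3 of the 8 passed with array class as a block. The bile acid hydroxylase gene cyp8b1.1 rose by 1.59, with 6.87, 6.66 and 7.10 at 72 hpf, against 5.28 at 48 hpf. By its other probe set it rose by 2.72. The aryl hydrocarbon responsive genes cyp1c1 and cyp1a rose by 0.96 and 0.70, and the call of cyp1a was lost without replicate 3 at 72 hpf. Of 10 tested complement genes 2 rose, cfd (1.22) and mbl2 (0.94), with a median of 0.37. The call of mbl2 was lost without replicate 3 at 72 hpf (limma adjusted p = 0.0502).

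In energy metabolism glycolytic genes rose. Of 29 tested genes of glycolysis and gluconeogenesis 12 rose and 0 fell, with a median of 0.32, and 10 of the 12 passed without any 1 of the 5 replicate controls. The enolase gene eno1b rose by 1.83, the pyruvate kinase gene pkma by 1.33 and the brain aldolase gene aldocb by 1.28. For eno1b the values were 7.96, 8.56 and 8.46 at 72 hpf, against 6.49 at 48 hpf. The gluconeogenic gene pck1 read 5.49 at 48 hpf, 6.51, 6.57 and 6.95 at 72 hpf, and 8.56 and 8.95 at 96 hpf. Of 85 respiratory chain genes 2 rose and 0 fell, against 8.3% and 9.64% of all genes, with a median of 0.05, and the larger of them was the cytochrome oxidase isoform gene cox4i2 at 1.15. Of the 2 calls 1 passed with array class as a block, and 1 without replicate 1 or 2 at 72 hpf or either 96 hpf array.

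**Figure D3:**
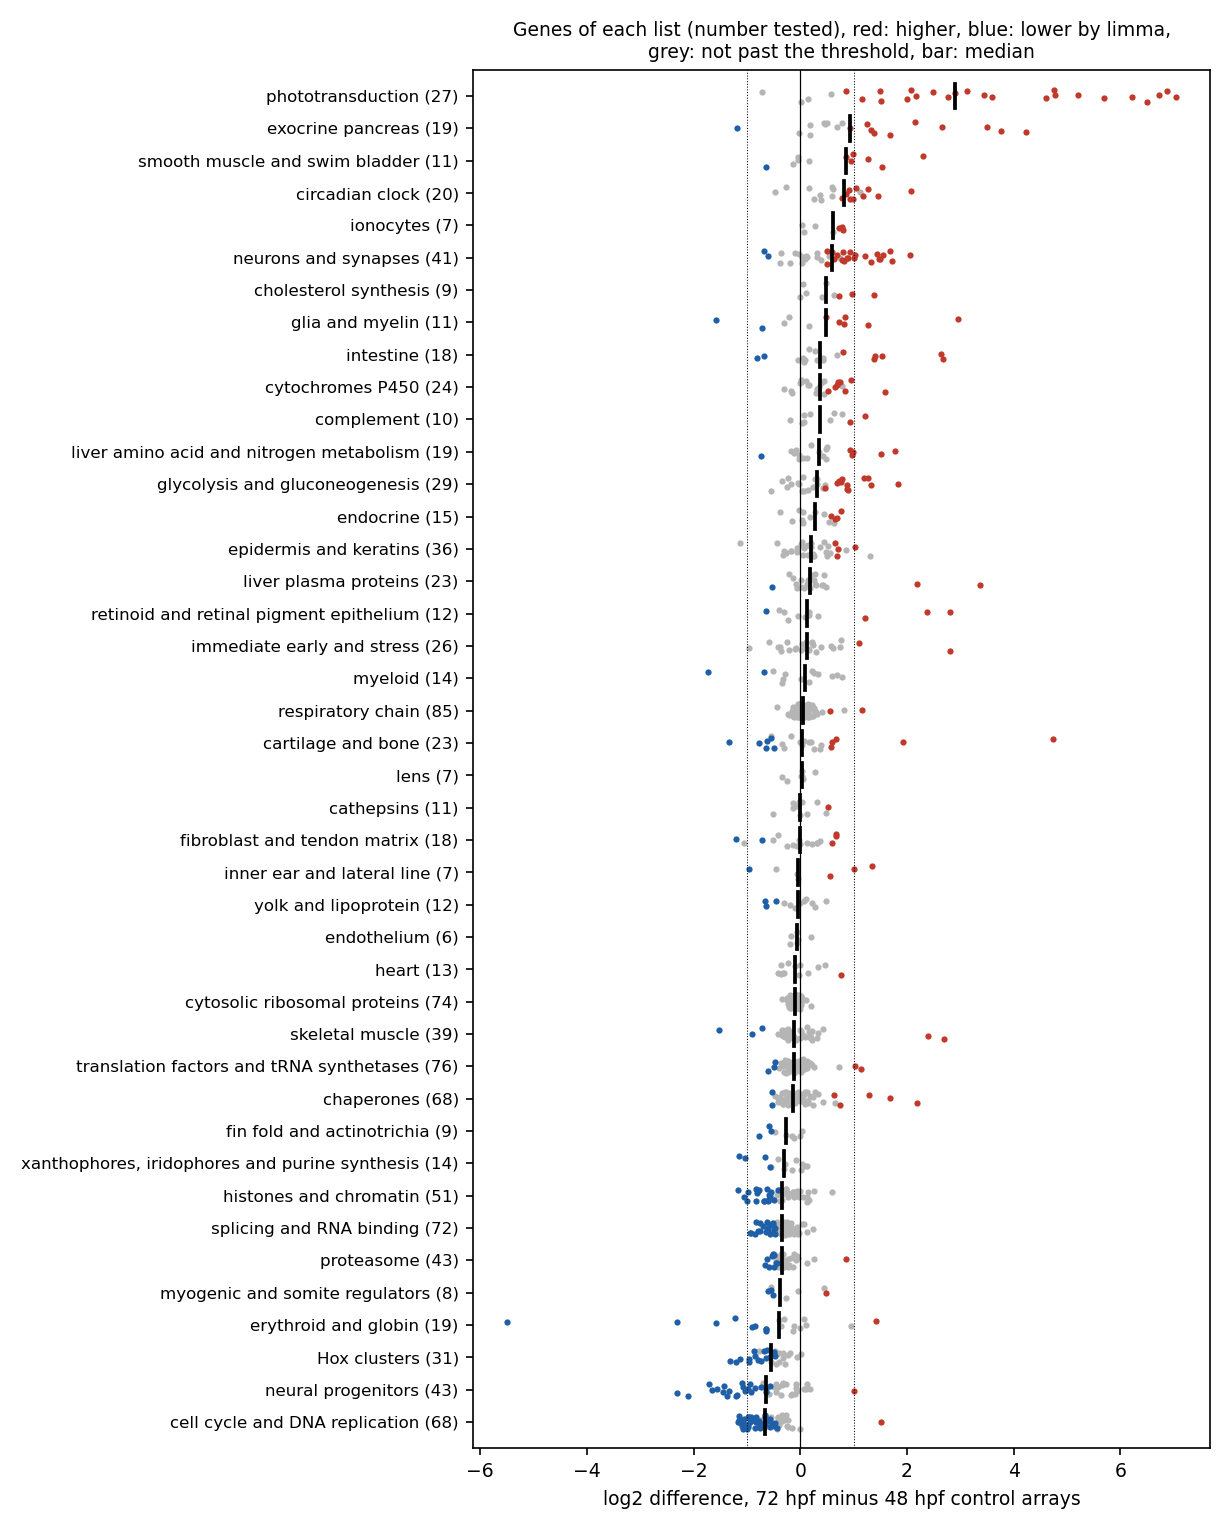
Log2 difference between the 72 hpf and 48 hpf control arrays (horizontal) of each tested gene, by list (rows, with the number of tested genes and a bar at the median), for lists with at least 5 tested genes. Red and blue points passed limma as higher and lower, grey points did not, and dotted lines mark -1 and 1. Phototransduction stands at the top with a median of 2.91 and cell cycle and DNA replication at the bottom with -0.65.

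Genes of neurons and synapses rose. Of 41 tested genes of neurons and synapses 22 rose and 2 fell, with a median of 0.59, and 18 of the 22 passed without any 1 of the 5 replicate controls. The neurogranin gene nrgna, a calmodulin binding protein of postsynaptic cells, rose by 2.06, with 7.28, 7.77 and 7.61 at 72 hpf, against 5.50 at 48 hpf. The neurofilament gene inaa (internexin) rose by 1.73 and the calretinin genes calb2b and calb2a by 1.68 and 1.55. The synaptic SNARE gene snap25b read 8.94 at 48 hpf, 10.25, 10.58 and 10.47 at 72 hpf, and 10.59 and 10.55 at 96 hpf. A set of 9 genes of synaptic vesicles and their release, assembled after the values were seen, differed by 0.59 to 1.5. The early neuron gene elavl3, which marks newly born neurons, fell by 0.68 (limma adjusted p = 0.0147), and the growth cone gene gap43 differed by -0.02.

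Myelin genes rose while a progenitor gene of the same list fell. Of 11 tested genes 6 rose and 2 fell, with a median of 0.49, and 4 of the 6 passed without replicate 2 at 72 hpf. The myelin basic protein gene mbpa read 5.14 at 48 hpf, 7.82, 8.32 and 8.15 at 72 hpf, and 9.45 and 9.36 at 96 hpf, a 7.73-fold rise between the first 2 ages (SE 0.19 on the log2 scale, limma adjusted p = 8.32e-05). The myelin claudin gene cldnk rose by 1.27 and the glutamine synthetase gene glula by 0.83. The oligodendrocyte and motor neuron progenitor gene olig2 read 6.0, 5.8 and 5.49 at 72 hpf, against 7.34 at 48 hpf (-1.57, limma adjusted p = 0.00163).

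Neural progenitor genes fell. Of 43 tested, 22 fell and 1 rose, with a median of -0.64, 12 were lower by rule, and 20 of the 22 passed without any 1 of the 5 replicate controls and also with array class as a block. The proneural gene neurog1, a switch from progenitor to neuron, read 8.42 at 48 hpf, 6.2, 6.15 and 6.01 at 72 hpf, and 5.97 and 5.63 at 96 hpf. It was 4.94 times as high at 48 hpf as at 72 hpf (log2 difference -2.3, SE 0.16, limma adjusted p = 0.000126). The Notch ligand gene dlb read 6.2, 6.41 and 6.07 at 72 hpf, against 8.32 at 48 hpf, and dla read 7.41, 7.22 and 7.36 at 72 hpf, against 9.04 at 48 hpf. In these 3 genes every 72 hpf array was at least 1.63 below the 48 hpf array. The receptor gene notch1a fell by 1.46 (its other probe set differed by -0.74) and the Notch related repressor gene hes6 by 1.55. The transcription factor gene sox11b, active in young neurons, fell by 1.65. For the gene given next, dld, the probe set was assigned by the annotation alone, and no sequence was checked. Another ligand gene, dld, read 10.51, 10.55 and 10.57 at 72 hpf, against 10.41 at 48 hpf, and did not pass (limma adjusted p = 0.515). The retinal homeobox gene rx1, which is used by retinal progenitors and again by photoreceptors, rose by 1.00 (limma adjusted p = 0.0206).

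Other progenitor regulators among the largest falls were in no list. They were the neuronal transcription factor gene ebf2 (5.53, 5.56 and 5.24 at 72 hpf, against 7.64 at 48 hpf), the spinal interneuron gene dbx1a (-1.90) and the POU domain gene pou3f1 (-1.68). For ebf2 the difference was -2.20 (SE 0.16, limma adjusted p = 0.000160). All 3 arrays at 72 hpf lay below 6 in ebf2 and dbx1a. The gene annotated as dldh, for dihydrolipoamide dehydrogenase (-1.97), sb:cb81 (-1.66) and si:dkey-239j18.3 (-2.54) were also among the 15 largest falls of named genes taken by rule. The symbols dldh and dld are alike, and which probe set measures which gene was not checked by sequence.

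Cell division genes fell together by smaller steps. Of 68 tested genes of the cell cycle and DNA replication 42 fell and 1 rose, with a median of -0.65, and 6 were lower by rule. Of the 42, 30 passed without any 1 of the 5 replicate controls and 35 with array class as a block. Without replicate 2 at 72 hpf 31 of the 42 passed. The cyclin F gene ccnf fell by 1.17, the spindle kinesin gene kif11 by 1.16 and the chromosomal passenger gene cdca8 by 1.15. For kif11 the values were 9.01 at 48 hpf, 7.99, 7.80 and 7.77 at 72 hpf, and 7.23 and 7.16 at 96 hpf. The histone mRNA binding gene slbp read 7.45, 7.46 and 7.29 at 72 hpf, against 8.54 at 48 hpf. A grouping made after the values were seen put 22 genes of mitosis at -1.17 to -0.64, with a median of -0.99, and the 6 genes of the MCM helicase of replication at -0.57 to -0.22, with a median of -0.39. The exception that rose, kif20a (1.52), is uncertain, because its other probe set differed by -0.67.

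Falls of chromatin and RNA processing genes were many and small. Of 51 tested genes of histones and chromatin 19 fell and 0 rose, with a median of -0.33, and 10 of the 19 passed with array class as a block. Without replicate 3 at 72 hpf 11 of the 19 passed, and without replicate 2 there 12. The remodeller genes smarcb1b and chd4a fell by 1.18 and 1.06. The high mobility group gene hmgb2a, typical of dividing cells, read 11.37, 11.32 and 11.52 at 72 hpf, against 12.24 at 48 hpf. Of 72 genes of splicing and RNA binding 21 fell and 0 rose, with a median of -0.35, but 8 of the 21 passed without replicate 2 at 72 hpf and 4 with array class as a block. The small nuclear ribonucleoprotein gene snrpg, which fell by 0.94, was among those that passed. Of 43 proteasome genes 9 fell and 1 rose, with a median of -0.35, and 0 of the 9 falls passed without replicate 2 at 72 hpf, where limma called 559 probe sets lower over the whole array. Of 74 cytosolic ribosomal protein genes 0 passed in either direction, with a median of -0.11 and a range of -0.33 to 0.2, and 0 had an unadjusted p under 0.05.

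Hox genes, which give positional identity along the body axis, were lower at 72 hpf. Of 31 tested genes 17 fell and 0 rose, with a median of -0.55, and 11 of the 17 passed with array class as a block. Without replicate 3 at 72 hpf the count was also 11. The gene hoxa9a read 5.28, 5.49 and 5.55 at 72 hpf, against 6.77 at 48 hpf, and fell by 1.32 (SE 0.16, limma adjusted p = 0.00164). Its relatives hoxb9a and hoxc9a fell by 1.21 and 0.96, while hoxb5a and hoxc6a differed by -0.06 and 0.01. By paralogue groups, formed after the values were seen, the 5 genes of group 9 lay at -1.32 to -0.74 and the 13 genes of groups 2 to 5 at -0.96 to -0.06.

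Red blood cell genes held the deepest fall of a named gene. Of 19 tested genes 9 fell and 1 rose, with a median of -0.40, 4 were lower by rule, and 8 of the 9 passed without any 1 of the 5 replicate controls. The embryonic beta globin gene hbbe3 read 10.58 at 48 hpf, 5.31, 4.73 and 5.19 at 72 hpf, and 4.42 and 4.53 at 96 hpf. The log2 difference was -5.50 with dim values at 72 hpf (SE 0.22, limma adjusted p = 7.64e-06). The other globin genes tested in the list did not pass. The beta globin gene hbbe2 read 11.24, 11.71 and 11.65 at 72 hpf, against 11.47 at 48 hpf, and the alpha globin gene hbae3, near the top of the array's range, differed by -0.40 (limma adjusted p = 0.0627). Globin genes are close copies, and their probe sets may share transcripts. The red cell anion exchanger gene slc4a1a fell by 2.3, with 7.36, 7.5 and 6.78 at 72 hpf, against 9.52 at 48 hpf. The first enzyme gene of haem synthesis, alas2, read 9.22 at 48 hpf, 7.55, 7.83 and 7.55 at 72 hpf, and 6.68 and 6.75 at 96 hpf. The membrane skeleton gene epb41b fell by 1.22. The mitochondrial carrier gene ucp3, which was placed in this list, rose by 1.41 and is better known from muscle.

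White cell genes were few. Of 14 tested myeloid genes 2 fell and 0 rose, with a median of 0.09. The lysozyme gene lyz, a macrophage and neutrophil product, read 8.48, 8.37 and 8.78 at 72 hpf, against 10.28 at 48 hpf (-1.73, SE 0.18, limma adjusted p = 0.000777). The myeloperoxidase gene mpx fell by 0.68 (limma adjusted p = 0.0222). The other probe set of mpx differed by -1.24. The gelatinase gene mmp9 varied by more than 2 among the arrays of 1 age, with 8.63, 6.44 and 7.63 at 72 hpf, against 6.78 at 48 hpf, and did not pass. The acid phosphatase gene acp5a, in no list, read 9.02 at 48 hpf, 5.69, 5.66 and 5.67 at 72 hpf, and 5.39 and 4.96 at 96 hpf, a fall of 3.34 (SE 0.17, limma adjusted p = 2.79e-05). In osteoclasts and macrophages its product is the tartrate resistant acid phosphatase.

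Skeletal genes changed in opposite directions. Of 23 tested genes of cartilage and bone 5 rose and 6 fell, with a median of 0.04. Without replicate 2 at 72 hpf 3 of the 5 and 3 of the 6 passed. The cartilage matrix gene matn1 (matrilin) read 7.04 at 48 hpf, 11.47, 12.07 and 11.77 at 72 hpf, and 11.62 and 11.25 at 96 hpf. Between the first 2 ages the log2 difference was 4.73, or 26.5-fold (SE 0.24, limma adjusted p = 2.58e-05). The collagen gene col10a1a, of hypertrophic cartilage and forming bone, rose by 1.93, with 9.98, 10.25 and 10.25 at 72 hpf, against 8.23 at 48 hpf. The cartilage regulator gene sox9b fell by 1.34 (8.23, 8.11 and 8.15 at 72 hpf, against 9.50 at 48 hpf; limma adjusted p = 0.000728), and dlx2a, of the neural crest that builds the pharyngeal arches, fell by 0.78. The main cartilage collagen gene col2a1a was already at 12.52 at 48 hpf and rose by 0.59 (limma adjusted p = 0.0236), a call lost without replicate 2 at 72 hpf (0.0569).

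Smooth muscle genes rose. Of 11 tested genes of smooth muscle and swim bladder 6 rose and 1 fell, with a median of 0.85, and all 6 passed without any 1 of the 5 replicate controls and with array class as a block. The 1 that fell, sox2 (-0.64), did not pass without replicate 3 at 72 hpf or with array class as a block. It was placed in this list, and the tissue its signal came from was not tested. The smooth muscle actin gene acta2 read 6.71 at 48 hpf, 8.76, 9.04 and 9.20 at 72 hpf, and 10.26 at 96 hpf as the mean of 2 arrays. The actin binding genes tagln and smtnb rose by 1.53 and 1.27. Of 39 skeletal muscle genes 2 rose and 3 fell, against 8.3% and 9.64% of all genes, with a median of -0.12. The mitochondrial creatine kinase gene ckmt2a rose by 2.69 and the tropomyosin gene tpm1, which is also a smooth muscle and heart gene, by 2.39, while the myosin binding protein gene mybpc2b fell by 1.52. The fast myosin light chain gene mylpfa read 13.94, 13.96 and 13.97 at 72 hpf, against 13.83 at 48 hpf (limma adjusted p = 0.542). A set of 11 fast myosin, actin and troponin genes, assembled after the values were seen, lay at -0.33 to 0.22. In the heart list 1 of 13 rose, the myosin gene myh7 at 0.76, and 0 fell.

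**Figure D4:**
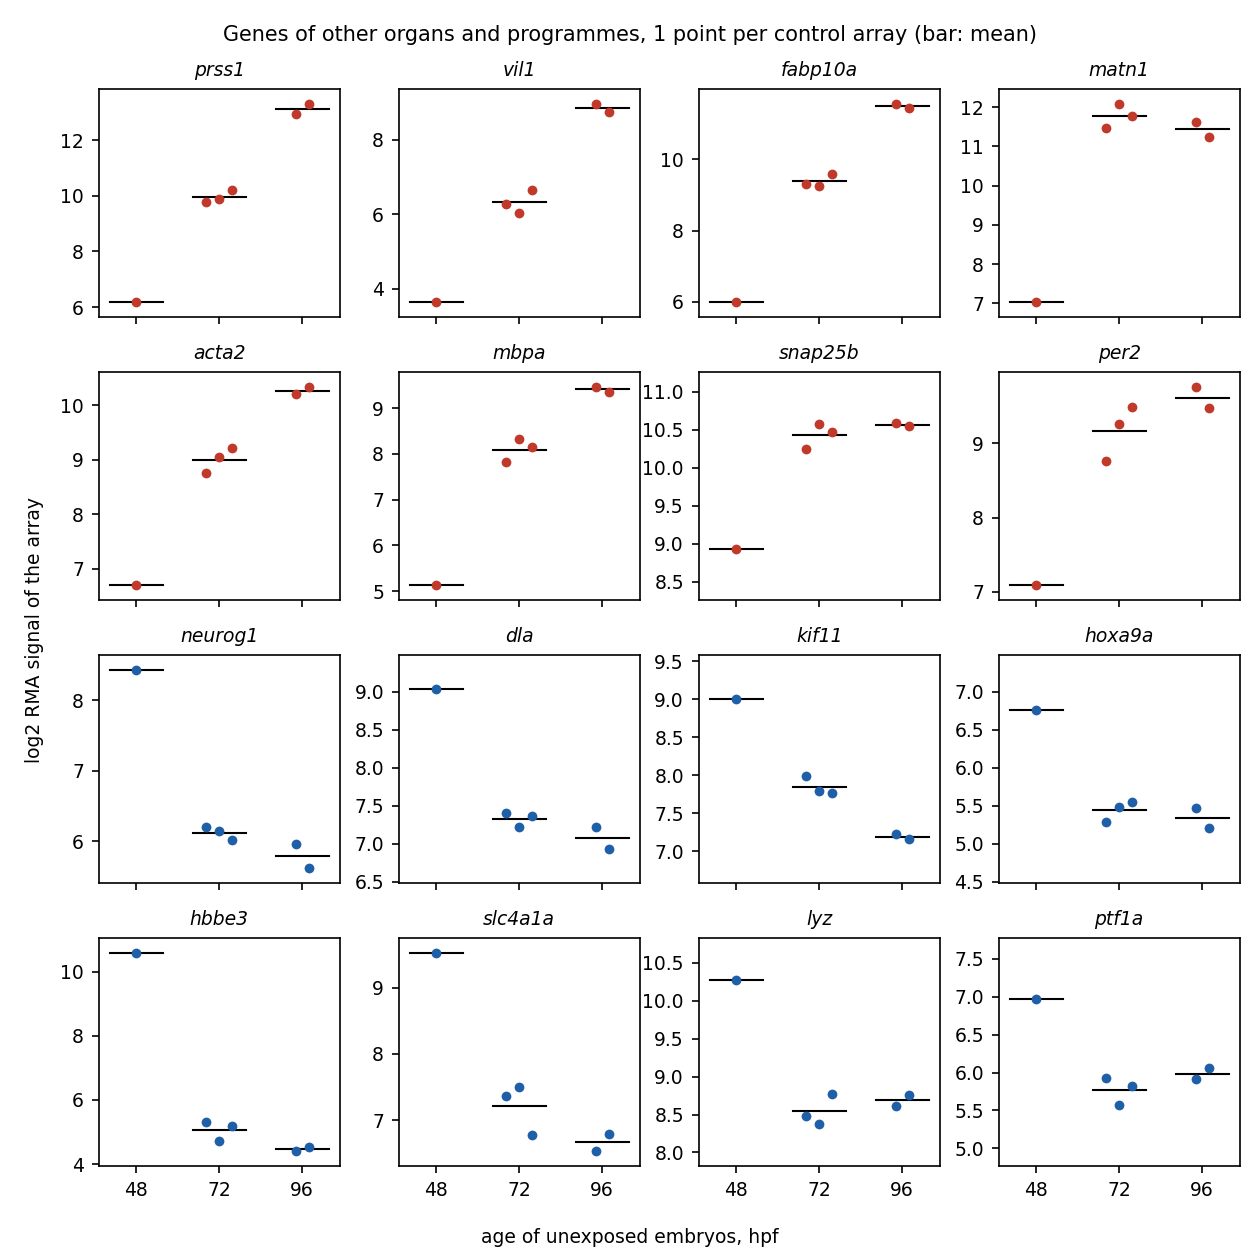
Log2 RMA signal of 16 genes of other organs and programmes (vertical, own scale per gene) in each unexposed array at 48 (1 array), 72 (3) and 96 hpf (2), with bars at the means. Red genes rose and blue genes fell between 48 and 72 hpf. In none of the 16 does the 48 hpf array lie within the range of the 72 hpf arrays. All 16 were changed by rule, which fixes this in advance.

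Clock genes rose. Of 20 tested clock genes 10 rose and 0 fell, with a median of 0.82, and 6 of the 10 passed without replicate 2 at 72 hpf. The light induced repressor genes per2 and cry1a rose by 2.07 and 1.46, and per2 read 8.76, 9.25 and 9.49 at 72 hpf, against 7.10 at 48 hpf. The nuclear receptor gene nr1d2b, a repressor of the clock, rose by 1.18. The sources used here did not give the hour of collection. Of 26 immediate early and stress genes 2 rose, klf9 and egr2b, and 0 fell, against 8.3% and 9.64% of all genes. The glucocorticoid responsive gene klf9 rose by 2.81 (SE 0.52, limma adjusted p = 0.00925) but varied among the arrays at 72 hpf, which read 9.95, 10.94 and 9.22, against 7.22 at 48 hpf. The cochaperone gene fkbp5, also glucocorticoid responsive, followed the same order with 9.20, 10.09 and 8.56 at 72 hpf, against 7.09 at 48 hpf.

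Counts in lists of pigment, skin, ear, ion transport and yolk genes are given against 8.3% higher and 9.64% lower over all genes. Of 14 tested genes of xanthophores, iridophores and purine synthesis 4 fell and 0 rose, with a median of -0.30, and 2 of the 4 passed when either 96 hpf array was left out. The pteridine gene gch2 fell by 1.14, with 9.82, 9.70 and 9.69 at 72 hpf, against 10.88 at 48 hpf. Of 36 epidermis and keratin genes 4 rose and 0 fell, with a median of 0.20, led by krt15 at 1.03 (limma adjusted p = 0.00966). The keratin gene krt4, abundant in the outer skin layer, differed by 0.01. Of 7 ionocyte genes 3 rose and 0 fell, with a median of 0.61, and the sodium pump gene atp1a1a.3 rose by 0.79. With array class as a block 2 of the 3 passed. Of 7 genes of the inner ear and lateral line 3 rose and 1 fell, with a median of -0.05. The pump subunit gene atp1b2b rose by 1.34 and the otolith matrix gene otomp by 0.57. The parvalbumin genes pvalb8 and pvalb9 differed in opposite directions, by 1.01 and -0.95. The call of pvalb8 was lost without replicate 2 or 3 at 72 hpf, and that of pvalb9 without replicate 1 or 2 and with array class as a block. Of 12 yolk and lipoprotein genes 3 fell and 0 rose, of which 1 passed without replicate 1 or 2 at 72 hpf. The apolipoprotein gene apoba fell by 0.64 (limma adjusted p = 0.0156; 0.0615 with array class as a block).

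The remaining lists are given against the same 8.3% higher and 9.64% lower over all genes. Of 9 genes of cholesterol synthesis 3 rose, with a median of 0.49, led by the sterol oxidase gene msmo1 (1.37), and 1 of the 3 passed without replicate 2 or without replicate 3 at 72 hpf. Of 15 endocrine genes 4 rose, the granin genes scg3 and scg5 (0.76 and 0.69) and the somatostatin genes sst1.1 and sst6.1 (0.64 and 0.58), and 1 passed without replicate 2 at 72 hpf. Of 18 genes of fibroblast and tendon matrix 3 rose and 2 fell. The 2 that fell were the collagen hydroxylase genes p4ha1b (-1.20; limma adjusted p = 0.0256, or 0.0761 with array class as a block) and plod1a (-0.72). Of the 3 that rose, fn1b (0.67), col6a3 (0.66) and thbs4b (0.59), 0 passed without replicate 2 at 72 hpf and 1 with array class as a block. Of 9 fin fold genes the 3 that fell were all msx homeobox genes, msx1b, msx3 and msx2b (-0.77, -0.58 and -0.55), of which 1 passed without replicate 1 or 2 at 72 hpf. Of 8 myogenic and somite regulators 3 fell, among them the muscle differentiation gene myog (-0.60), and 1 rose, mef2aa (0.49), and 0 of these 4 calls passed without replicate 2 at 72 hpf. Of 68 chaperone genes 5 rose and 2 fell, and of the 2 falls 0 passed without replicate 3 at 72 hpf or with array class as a block. Of 76 translation factor and tRNA synthetase genes 2 rose and 3 fell, and of the 3 falls 0 passed without replicate 2 or 3 at 72 hpf or with array class as a block. The 2 that rose, eef1a1a (1.13) and eef1a1b (1.03), are paralogues of the elongation factor gene eef1a1l1, and eef1a1b was dim, at 5.46, 5.48 and 5.46 at 72 hpf, against 4.44 at 48 hpf. Of 11 cathepsin genes 1 rose, ctsf (0.52), a call lost without any 1 of the 3 arrays at 72 hpf and with array class as a block. Of 3 melanophore genes 1 fell, dct (-0.74), which encodes an enzyme of melanin synthesis and whose call was lost without replicate 2 or 3 at 72 hpf or either 96 hpf array (limma adjusted p up to 0.0933).

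No tested gene of the hatching gland passed. This gland makes the enzymes that digest the chorion and is lost after hatching. Its list held 4 tested genes, of which limma called 0 in either direction and 1, cd63, had an unadjusted p under 0.05, with a median of 0.19. The gland regulator gene klf17 read 6.44, 6.4 and 6.33 at 72 hpf, against 6.51 at 48 hpf (-0.12, limma adjusted p = 0.580). The secretory genes xbp1, agr2 and cd63, which other tissues use as well, differed by 0.23, 0.15 and 0.40. The transmembrane gene plvapb and the receptor gene kdrl of blood vessels differed by 0.20 and -0.18, and limma called 0 of 6 endothelial genes, with 0 at an unadjusted p under 0.05.

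At the threshold of the rule genes of like size fell on either side. Just inside on the upper side lay zgc:64106, gcshb and abca12, with mean differences of 1.1, 1.19 and 1.13, and just outside slmapb, mdkb and cfd, with 1.06, 1.2 and 1.22. On the lower side fignl2, chd4a and krcp (-1.12, -1.06 and -1.23) were just inside and sox19a, dnmt3ba and znf217 (-1.03, -1.04 and -1.03) just outside. Of the 372 probe sets 2 higher ones did not pass limma, slc16a9a (adjusted p = 0.0557) and a second probe set of egr1 (0.308).

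In embryos kept with emulsion, on other arrays, the 72 minus 48 hpf difference had the same direction in every probe set taken by rule. The comparison of the 3 exposed arrays at 72 hpf with the Gulfport array at 48 hpf shares no array with the control comparison, though all arrays were normalized together. Limma called 772 probe sets higher (7.88%) and 1054 lower (10.8%) there. All 255 probe sets higher by rule in unexposed embryos were also above 0 in exposed embryos (44.6% of all tested were), and all 117 lower ones were below 0 (55.4% of all tested were). Of the 255, 161 were at least 1 higher in all 3 exposed arrays (63.1%, against 2.08% of all tested) and 229 were called. Of the 117, 83 were at least 1 lower in all 3 (70.9%, against 1.26%) and 113 were called. The median difference was 1.44 and -1.31 in exposed embryos, and 1.53 and -1.30 in unexposed embryos. Medians of single lists were less alike. Phototransduction had 2.11 exposed and 2.91 unexposed, exocrine pancreas 0.39 and 0.94, and immediate early and stress genes 0.92 and 0.12. Neural progenitors had -0.60 and -0.64, and cell cycle genes -0.70 and -0.65. Each step rests on 1 array at 48 hpf. The 3 exposed arrays at 72 hpf, 1 per emulsion, were fitted as 1 group, so the spread includes differences between emulsions. This holds for the calls in exposed embryos and for the test given next. No probe set passed a test of the difference between the 2 age steps (limma, 0 of 9803, with 241 at an unadjusted p under 0.05).

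**Figure D5:**
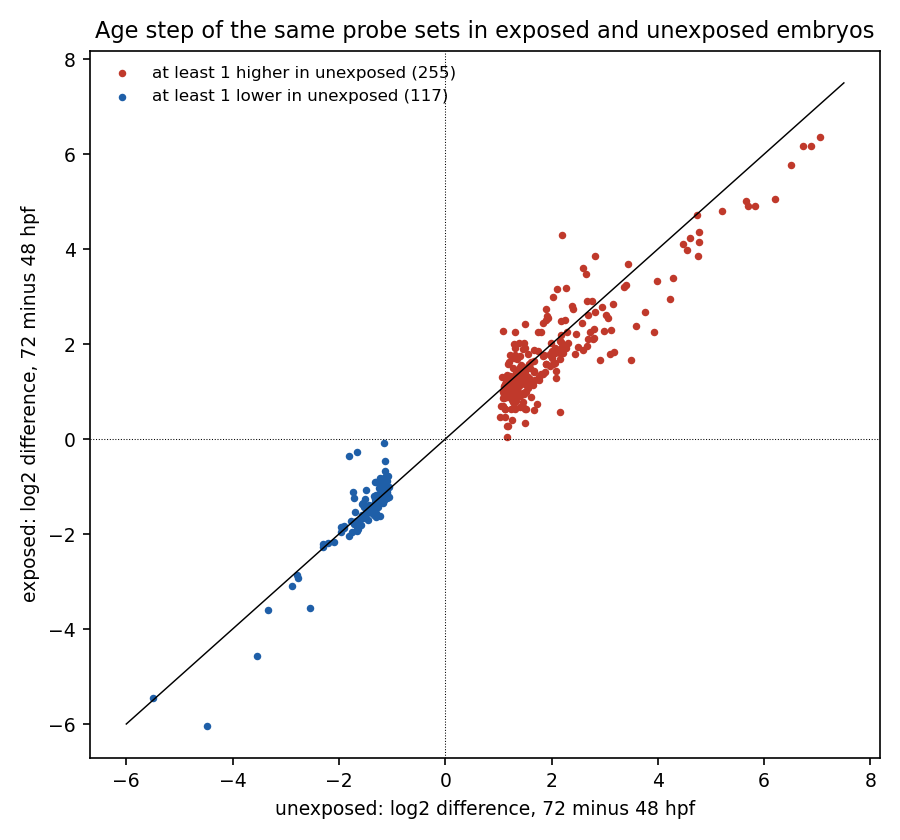
Log2 difference between 72 and 48 hpf in exposed embryos (vertical, mean of 3 arrays against 1) and in unexposed embryos (horizontal, mean of 3 against 1) for the 372 probe sets chosen in unexposed embryos, with the line of equality. All 255 red points lie above 0 and all 117 blue points below 0 on the vertical axis.

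Steps of single genes in exposed and unexposed embryos stand side by side here. The cone opsin gene opn1sw1 read 11.26, 11.83 and 12.69 at 72 hpf with Gulfport, Fort Morgan and Perdido Key emulsion, against 5.57 at 48 hpf with Gulfport emulsion, a rise of 6.35 (limma adjusted p = 6.34e-05). The cartilage gene matn1 rose by 4.72 in exposed and by 4.73 in unexposed embryos. The proneural gene neurog1 fell by 2.21 in exposed and by 2.3 in unexposed embryos, and hbbe3 by 5.46 and 5.50. Smaller steps were measured for the rod gene gnat1 (1.67 exposed, 2.91 unexposed) and the elastase gene cela1.6 (1.67 exposed, 3.5 unexposed). The chymotrypsin relative ctrl and the rod gene pde6a differed by 0.39 and 0.28 in exposed embryos, where they did not pass (limma adjusted p = 0.296 and 0.331), and rose by 1.26 and 1.16 in unexposed ones. None of these single differences between the steps passed limma over all genes. The 1 listed gene whose exposed step had the opposite sign with a size of at least 1 was fosab, at 1.66 in exposed and -0.25 in unexposed embryos, passing in neither.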

How the data were processed

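Total RNA from pooled whole embryos was hybridised to Affymetrix zebrafish arrays. The deposited log2 values were made by the authors with RMA, per the submitters' processing notes. RMA corrects background, normalizes quantiles between arrays and summarises probes, and it compresses differences between dim values. The software version was not given in the sources used here. Scanner files were not used here, so no detection calls were made, and the number of arrays limits the precision.

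Of 15617 probe sets, 115 AFFX controls were left out, and 9803 of the other 15502 reached log2 6 in at least 1 of 11 arrays and were tested. Of these, 7570 carried 1 gene symbol, 80 several and 2153 none in the platform annotation. Symbols were checked by Entrez ID against RefSeq, where 10711 of the kept probe sets matched. A gene with several probe sets stands in the lists by its brightest on average over the arrays, which leaves 6466 genes.

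Limma 3.58.1 in R 4.3.3 fitted 1 mean per age over the 6 control arrays, with 3 residual degrees of freedom and p-values adjusted by Benjamini-Hochberg over the 9803 probe sets. The exposed step came from a fit of all 11 arrays in 6 groups. The fit of the control arrays was tried on simulated data, and the outcome is not given here. Simulated arrays cannot show whether the lone control array of the first age varies like the other controls, which that fit assumes. Tables and plots used Python 3.11.15, pandas 2.3.3 and matplotlib 3.10.9.

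The members, the 35 gene lists (1280 genes, 633 tested) and 10 gene families taken by name were chosen with earlier results of these data known. Genes named were the 15 of largest difference per direction among those called and changed by at least 1 in all 3 arrays, up to 6 of largest absolute difference per list, every tested hatching gland gene, 3 genes on each side of the rule's threshold, 5 reference genes, and list genes with an opposite exposed step of at least 1. Other genes, among them those given because they did not pass, were chosen after their values were seen. Alternatives changed the filter, the arrays in the fit, the moderation, the scaling, the 48 hpf array and the threshold, added array class as a block, or left out each replicate.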

Additional observations from a re-analysis of the deposited data

Results flagged for a closer look

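A pair of listed genes moved one way in every exposed array and the other way in every unexposed array between 48 and 72 hpf. The cathepsin gene ctsba differed by 0.30 in exposed and by -0.14 in unexposed embryos (difference of the steps 0.44, limma adjusted p = 0.999). The cholesterol synthesis gene dhcr7 differed by -0.22 in exposed and by 0.40 in unexposed embryos (difference of the steps -0.62, limma adjusted p = 0.999). Neither difference passed over all probe sets, and neither gene passed in either step. With 1 array at 48 hpf in each comparison, all arrays of a step share that array's deviation.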

How the results depend on the processing

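The main counts were 905 probe sets called higher and 854 lower. Testing only probe sets at log2 8 or above in at least 1 array gave 512 and 521, an adjusted p of 0.01 gave 432 and 296, and the mean of the control and Gulfport arrays at 48 hpf gave 1515 lower. With array class as a block 489 were called lower. Leaving out 1 array gave 681 to 826 higher and 559 to 703 lower, lowest without replicate 2 at 72 hpf. The rule at 2 in place of 1 took 63 and 10 probe sets. The rule at 1 with the log2 8 filter took 58 lower ones, against 117. Without 1 of the 3 arrays at 72 hpf it took 276 to 308 higher and 125 to 150 lower, by construction at least as many. List genes called numbered 141 higher and 111 lower, and 120 to 140 and 81 to 100 without 1 array. The exposed step had 341 and 417 calls from the 5 exposed arrays only, and 652 to 789 and 828 to 902 without 1 array. The causes were not tested.

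With the mean of both 48 hpf arrays cyp1a and cyp1c1 turned to -2.44 and -1.12, and with the Gulfport array in place of the control, chosen after seeing the data, to -5.59 and -3.20. The same swap turned fn1b to -0.17, psme1 to -0.22 and the melanophore median to 0.0017. The retinoid median turned to -0.0056 with the class block and the myogenic median to 0.44 with the log2 8 filter. This 0.44 is the value of the single gene mef2d, so it does not describe the list. Of the other values of named genes, 3833 kept direction and side, 273 lost and 72 gained the call, and 27 uncalled ones changed sign. Of list medians 628 kept their value within the spread and 88 moved. Of 1160 called genes, 710 passed without each of the 5 replicate controls. Of the 236 called genes taken by rule, 234 did, but the rule had picked them on the same 72 hpf arrays. That count is therefore largely fixed by the choice and is no separate check.

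No paired analysis was possible because the 48 hpf control carries no replicate number. The lone 48 hpf array enters every difference, so its own deviation cannot be told apart from age. Dim values under log2 6 have no detection call.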

Other observations

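Genes outside the fixed lists also changed by at least 1 in all 3 arrays, and those given here were chosen after their values were seen. Among 84 higher genes in no list were the ependymin gene epd, a secreted brain glycoprotein, with 9.59, 9.68 and 9.85 at 72 hpf, against 7.12 at 48 hpf. The angiotensinogen gene agt rose by 2.44 and the urate oxidase gene uox by 2.25, both liver genes in other vertebrates. The complement inhibitor gene cd59a rose by 2.82, the lactate dehydrogenase gene ldhbb by 2.69, and the aquaporin gene aqp9b by 2.07. The fatty acid elongase gene elovl4b, which makes very long chains used in retina and brain, rose by 2.18. The parvalbumin genes pvalb6 and pvalb7, calcium buffers of muscle and neurons, rose by 2.3 and 2.01.

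Among lower genes in no list, a Notch ligand gene and Notch targets appeared beside those described above. The ligand gene jag1a fell by 1.43, and the feedback gene nrarpb and the repressor gene her15.2 by 1.28 and 1.18. The progenitor genes foxn4, of retinal and spinal progenitors, and olig3, of the dorsal neural tube, fell by 1.25 and 1.22. The cell cycle inhibitor gene cdkn1ca, which acts as cells leave division, fell by 1.44 and the limb and forebrain gene sp8b by 1.5.

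Of the 255 probe sets higher by rule, 66 had no gene symbol in the annotation used here. Among them were probe sets that rose by 5.83 and 4.78, and among the 21 lower ones without a symbol were probe sets that differed by -4.49 and -3.54.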
